A study of Mus musculus with 82 samples.

Results

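The genes described here are the zinc finger genes with the recently given symbols Zfp900 to Zfp999. They were taken as all probe sets whose annotation gives 1 symbol made of Zfp and 3 digits starting with 9, with the probe set of the highest mean standing for each gene. This gave 34 genes from 36 probe sets, out of 19752 genes with 1 symbol and 24922 probe sets in all. Another 26 probe sets carried a symbol of this range beside others, between 2 and 18 symbols each, and 18 symbols of the range were seen only there. Those probe sets were not used. The 34 genes lie on 11 chromosomes, with 10 on chromosome 17, 6 on chromosome 4 and 6 on chromosome 7.

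Zinc finger proteins of this kind bind DNA through rows of fingers, and many carry a KRAB domain, which recruits the corepressor Trim28 and, through it, the histone methyltransferase Setdb1 and heterochromatin proteins of the Cbx family. KRAB zinc finger genes are known for silencing endogenous retroviruses. They sit in clusters that grew by local duplication, and the content of such clusters differs between mouse species and strains. The annotation used here gives names and positions and does not say which of the 34 proteins carry a KRAB domain.

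The cells were naive CD4 T cells, sorted from the spleens of male inbred mice as CD3+CD4+CD62L+ after exclusion of cells positive for markers that included CD8, CD11c, CD25, CD49b, Gr1 and Ter119. Each of the 82 Affymetrix ST1.0 arrays read a pool of 2 to 3 mice, aged 6 weeks by the labels and supplied at 5 weeks. There were 40 strain groups, of which 38 had 2 arrays, C57BL/6J had 5 and SWR/J had 1. They were 129S1/SvImJ, A/J, AKR/J, BALB/cByJ, BPL/1J, BTBR T+ tf/J, C3H/HeJ, C57BL/10J, C57BL/6J, C57BLKS/J, C57L/J, CAST/EiJ, CBA/CaJ, CBA/J, CE/J, DDY/JclSidSeyFrkJ, FVB/NJ, JF1/Ms, KK.Cg-Ay/J (which carries the yellow allele of agouti), LGJ, LP/J, MA/MyJ, MRL/MpJ, MSM/Ms, NOD/ShiLtJ, NON/ShiLtJ, NOR/LtJ, NZB/BINJ, NZW/LacJ, P/J, PL/J, PWD/PHJ, RIIIS/J, SEA/GnJ, SJL/J, SM/J, SWR/J, WSB/EiJ and the groups called C57BR-titled and DBA2-titled. Titles and background labels disagreed for the latter pair (C57BR against CBA/CaJ, and DBA2 against DBA/1LacJ), and each was kept as a group of its own. The pools of a strain are given as biological replicates, so p-values rest on the differences among pools. In bulk RNA, fewer cells of a type and less RNA per cell cannot be told apart.

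All 6 measured T cell markers and all 5 measured naive T cell markers had means above the median of all values, which was 6.82 on the log2 scale (an intensity of 113). The series text also names granulocytes in its account of the arrays, and the 6 neutrophil markers had a median list mean of 5.71 over arrays. B cell markers had a median list mean of 5.63 over arrays and a highest one of 8.79, on PL/J replicate 2, which was also highest for the neutrophil, erythroid, myeloid and CD8 lists. A/J replicate 2 had raised B cell (7.35, against 5.68 on replicate 1) and erythroid markers (7.66 against 6.48). Means above the median of all values were found for 1 of 9 measured B cell markers, 1 of 2 CD8 markers (Cd8b1), 1 of 5 natural killer markers (Prf1), 1 of 3 erythroid markers (Slc4a1) and 0 of 6 neutrophil, 6 myeloid and 4 dendritic cell markers. C57BL/6J replicate 5 had the highest array median intensity, 142, where the lowest array had 102. Another array stood apart in the 34 genes themselves. Their mean was 6.25 on BTBR T+ tf/J replicate 2, the lowest of all arrays, against 6.97 on replicate 1 of that strain and a median of 7.04 over arrays. This was not particular to the 34 genes. The mean of the Zfp genes numbered below this range was lowest on the same array, at 7.28 against 7.47 on replicate 1. The mean of the naive markers was also lowest on BTBR T+ tf/J replicate 2, at 11.67 against a median of 12.14. The part of these markers in the results on this strain was not tested. Counts that rest on these arrays are given below with and without them.

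Promoters were compared first, since the results turn on groups of neighbouring genes. RefSeq sequences of the GRCm38.p6 assembly, in which C57BL/6J is the sequenced strain, held a window for 32 of the 34 genes. The 250 bases before the start site were aligned for all 496 pairs of these genes, and the median pair was identical at 57.2% of positions. Identity was at least 70% in 11 pairs. The window of Zfp979 was 90.4% identical to that of Zfp980, 88.4% to that of Zfp982 and 86.4% to that of Zfp985, all on chromosome 4. Zfp942 and Zfp944 on chromosome 17 were 89.6% identical, and Zfp971 and Zfp931 on chromosome 2 were 84.8% identical.

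Among all runs of 10 bases, read on either strand, 2 were shared by 6 of the 32 genes, more than any other. The rarer of these over all RefSeq windows was TTGGGCGGGT, which holds a GC box (GGGCGG). As it was chosen on these windows, its count among the genes is no finding. It was present in Zfp979, Zfp980, Zfp982, Zfp985, Zfp945 and Zfp947, and in 0.0791% of 32851 RefSeq windows of the same length. The GC box alone was in 11 of the 32 genes and in 32.7% of all windows. The CCAAT box (CCAAT on either strand) was in 21 of the 32 genes against 33.8% of all windows, the ETS core CGGAAG in 8 against 13.6%, and the TATA box TATAAA in 0 against 12.4%. Each match describes letters in the window, not a bound site. The windows of Zfp979 and its neighbour Zfp985 are shown because their strain patterns are compared below. Zfp945 is added as the other gene that met the on/off gap rule defined below. Each window is written 5′ to 3′ on the strand of the gene and ends at the base before the start site. Capitals mark TTGGGCGGGT. Zfp979 lies at chr4:147642509-147642758 on the minus strand, Zfp985 at chr4:147553027-147553276 on the plus strand and Zfp945 at chr17:22867135-22867384 on the minus strand.
Zfp979: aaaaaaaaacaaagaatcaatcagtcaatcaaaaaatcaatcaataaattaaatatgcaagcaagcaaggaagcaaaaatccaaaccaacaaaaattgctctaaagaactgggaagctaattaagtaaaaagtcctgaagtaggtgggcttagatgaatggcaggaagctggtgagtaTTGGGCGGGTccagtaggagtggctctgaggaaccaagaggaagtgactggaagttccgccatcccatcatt
Zfp985: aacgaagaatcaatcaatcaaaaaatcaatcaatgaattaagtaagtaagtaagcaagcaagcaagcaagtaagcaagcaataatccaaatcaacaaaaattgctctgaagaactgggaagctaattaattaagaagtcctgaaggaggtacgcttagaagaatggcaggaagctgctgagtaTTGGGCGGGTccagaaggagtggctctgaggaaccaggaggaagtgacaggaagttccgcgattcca
Zfp945: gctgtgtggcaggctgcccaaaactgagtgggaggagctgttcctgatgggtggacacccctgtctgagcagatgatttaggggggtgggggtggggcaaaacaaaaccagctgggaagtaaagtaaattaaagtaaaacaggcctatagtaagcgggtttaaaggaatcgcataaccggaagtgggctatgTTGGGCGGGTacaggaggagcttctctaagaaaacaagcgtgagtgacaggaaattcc

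The pair Zfp931 (chr2:178078426-178078675, minus strand) and Zfp971 (chr2:178023034-178023283, plus strand) is shown because similar windows stand beside different lowest strains. The ranks of their strain means agreed in part, with a Spearman rho of 0.65 and a Pearson r of 0.28. Capitals mark CCAAT and its reverse complement ATTGG.
Zfp931: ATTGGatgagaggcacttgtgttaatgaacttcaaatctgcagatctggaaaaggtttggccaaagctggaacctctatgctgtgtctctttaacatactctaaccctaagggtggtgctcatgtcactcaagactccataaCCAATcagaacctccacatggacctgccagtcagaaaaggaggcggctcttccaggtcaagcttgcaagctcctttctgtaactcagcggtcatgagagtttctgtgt
Zfp971: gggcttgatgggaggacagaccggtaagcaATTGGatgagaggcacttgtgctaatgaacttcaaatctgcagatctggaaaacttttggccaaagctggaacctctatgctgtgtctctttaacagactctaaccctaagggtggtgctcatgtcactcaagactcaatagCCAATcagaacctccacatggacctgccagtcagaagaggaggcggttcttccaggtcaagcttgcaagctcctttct

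Variation between strains was read from strain means on the log2 scale and tested with limma's moderated F-test over all 40 groups, with Benjamini-Hochberg adjustment across the whole array and 0.05 as the threshold. Of the 34 genes 31 passed, against 47.6% of all probe sets. The 3 that did not pass were Zfp941 (adjusted p = 0.208), Zfp957 (0.20) and Zfp958 (0.0510). The median SD of strain means was 0.301 for the 34 genes, against 0.164 for 282 other Zfp genes and 0.143 for all probe sets. Of the other Zfp genes 199 passed (70.6%). The highest and lowest strain means were at least 2-fold apart in 25 of the 34 genes, in 67 of the other 282 Zfp genes and in 4627 of all 24922 probe sets. The SD of strain means exceeded the SD between replicates in 29 of the 34 genes, where the replicate SD had a median of 0.226. The SD of strain means also holds part of the replicate variation, and the share over all probe sets is not given here.

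The mean level of 19 genes lay above the median of all values. Signals of different probe sets are not comparable as transcript amounts, so levels are compared only within a gene. Mean intensities were 600 for Zfp971, 517 for Zfp961, 437 for Zfp953, 422 for Zfp938 and 397 for Zfp983. The dimmest probe sets were those of Zfp980 (14.3), Zfp947 (17.7) and Zfp979 (24.4). Zfp979 and Zfp980 were also among the 8 genes with an SD above 0.5. The intraclass correlation, the share of the variance that lies between strains, was at least 0.8 in 4 genes: 0.980 for Zfp979, 0.857 for Zfp949, 0.852 for Zfp971 and 0.808 for Zfp985.

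Chromosome 17 holds the largest group, and all 10 of its genes passed the F-test. The widest were Zfp945 (SD of strain means 0.47), Zfp946 (0.43) and Zfp943 (0.41), the last from 137 in DBA2-titled to 420 in C57BL/6J. Zfp983, Zfp942 and Zfp944 shared their extremes, lowest in BTBR T+ tf/J and highest in BALB/cByJ, at 218 to 567, 185 to 488 and 121 to 323. The other 4, Zfp948, Zfp947, Zfp952 and Zfp959, had SDs of 0.23 to 0.27. On chromosome 7, 5 of 6 genes passed, and the widest was Zfp975, from 14.2 in JF1/Ms to 60.6 in BPL/1J, all below the median of all values. Zfp974, on the same chromosome, ran from 28.4 in NZW/LacJ to 81.6 in C57BL/6J and Zfp939 from 41.2 in MSM/Ms to 95.6 in C3H/HeJ. Zfp954 was among the steadier genes (268 in PL/J to 510 in PWD/PHJ). On chromosome 8, Zfp961 ran from 359 in CAST/EiJ to 814 in WSB/EiJ and Zfp930 from 184 (BTBR T+ tf/J) to 359 (BALB/cByJ), while Zfp958 did not pass. Zfp950, the only gene on chromosome 19, was lowest in BTBR T+ tf/J (36.5), highest in SJL/J (89.2) and passed. All low ends in BTBR T+ tf/J include its replicate 2.

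**Figure D1:**
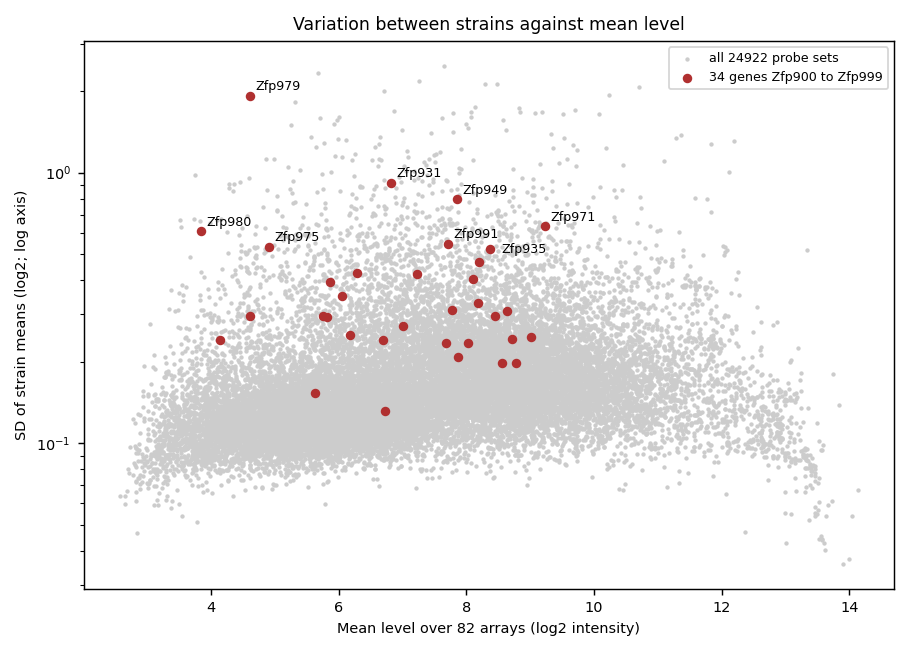
The SD of 40 strain means (log2, log axis) is plotted against the mean level over 82 arrays (log2 intensity) for all 24922 probe sets in grey and for the 34 zinc finger genes in red. The 8 genes with an SD above 0.5 are named, and Zfp979 is the highest of the 34 at 1.93.

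Zfp979, a gene of the chromosome 4 cluster, had an on/off pattern. Its signal was low in 24 strains and far higher in 16, with no strain in between. Among the low strains, strain means ran from an intensity of 7.37 in LGJ to 10.0 in P/J, and the 51 arrays from 7.0 to 11.4. Among the other 16 strains, means ran from 70.7 in SWR/J to 222 in NOD/ShiLtJ, and the 31 arrays from 54.4 on PL/J replicate 2 to 232 on NOD/ShiLtJ replicate 2. The gap between P/J and SWR/J was 2.82 on the log2 scale, against a replicate SD of 0.27. The SD of strain means was 1.93, which ranked 9 among all 24922 probe sets (adjusted p = 9.37e-35, moderated F-test). The 24 low strains were not told apart from background, so the SD, its rank and the gap depend on the floor, and with an offset of 32 added to each intensity before log2 the SD was 1.00.

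The 16 strains with signal, by rising strain mean, were SWR/J, NZB/BINJ, PL/J, SM/J, NZW/LacJ, AKR/J, CBA/J, CBA/CaJ, SJL/J, NON/ShiLtJ, C3H/HeJ, DDY/JclSidSeyFrkJ, WSB/EiJ, MA/MyJ, PWD/PHJ and NOD/ShiLtJ. Their order carries little weight between neighbours, as replicates overlapped between adjacent strains, for example 139 and 104 in CBA/J against 93.6 and 172 in CBA/CaJ. All 5 C57BL/6J arrays were low, at 9.42, 7.85, 10.3, 9.25 and 9.38, and so were both arrays of C57BL/10J, C57BLKS/J and C57L/J. Related strains fell on the same side in the CBA and C3H group (with signal) and in 129S1/SvImJ and LP/J (low). NOD/ShiLtJ and NOR/LtJ fell on opposite sides. Among the 4 strains derived from subspecies other than M. m. domesticus, PWD/PHJ had signal, with arrays at 231 and 191, whereas CAST/EiJ, MSM/Ms and JF1/Ms were low. The C57BR-titled arrays, at 9.39 and 8.13, were low as in C57L/J and unlike CBA/CaJ, the strain that their background label names.

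**Figure D2:**
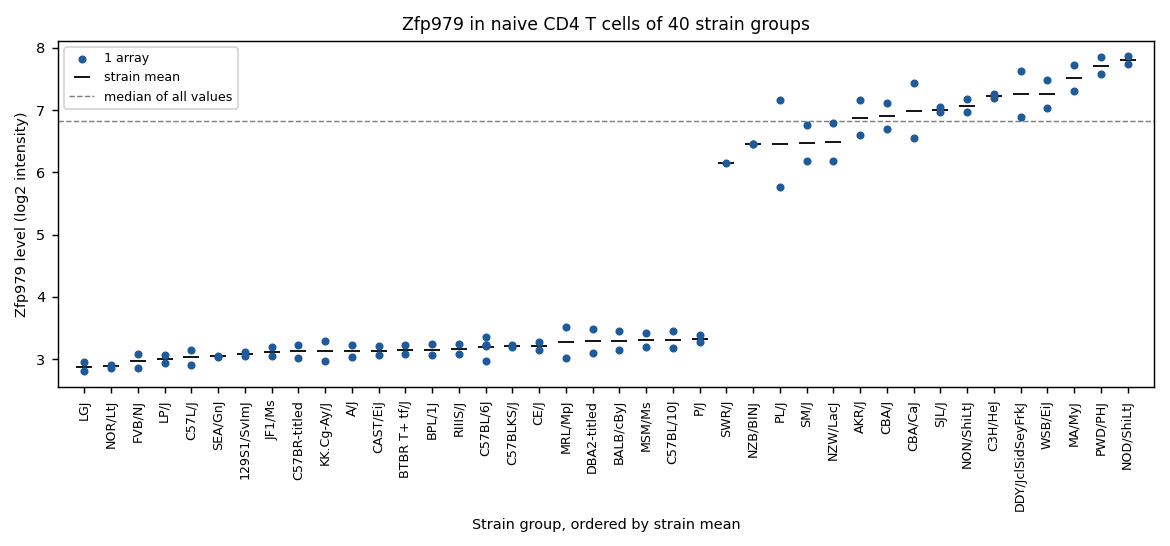
Zfp979 level (log2 intensity) of each of 82 arrays (points) and each of 40 strain means (bars), with strains ordered by mean and the median of all values dashed. 24 strains sit at intensities of 7.37 to 10.0 and 16 at 70.7 to 222, with no strain between.

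The annotation places Zfp991, Zfp982, Zfp985, Zfp979 and Zfp933 close together on chromosome 4, with Zfp980 a little further off. Zfp982 and Zfp985 are next to each other, as are Zfp985 and Zfp979, and Zfp979 and Zfp933 have 2 coding genes between them. The other genes of the cluster varied in degree and had no gap like that of Zfp979. Zfp985 ranged from an intensity of 87.2 in BALB/cByJ, with arrays at 92.4 and 82.3, to 287 in SJL/J, with arrays at 338 and 244 (SD of strain means 0.42, adjusted p = 3.78e-12, moderated F-test). Zfp991 ranged from 87.8 in BPL/1J to 412 in SJL/J, Zfp933 from 177 in C57BLKS/J to 443 in PWD/PHJ and Zfp982 from 19.1 in LP/J to 48.4 in SJL/J. SJL/J was thus highest in Zfp985, Zfp991 and Zfp982. Zfp985 has 3 probe sets with 1 symbol, and the other 2 were dimmer, with mean levels of 4.60 and 4.06 on the log2 scale. Both passed the F-test too.

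Of the 11416 genes that exceeded the median of all values in at least 1 strain mean, the 3 whose strain means most resembled those of Zfp979 by Pearson r over 40 strains were its own neighbours: Zfp985 (0.62), Zfp933 (0.57) and Zfp991 (0.55). The strains fall into separate clusters in Zfp979, so the coefficient was also taken on each side of its gap. For Zfp985 it was 0.33 over the 16 strains with signal and 0.19 over the 24 low strains. For Zfp933 it was 0.65 and -0.17, and for Zfp991 0.42 and -0.12. On the log2 scale, Zfp985 ran from 7.07 to 8.17 in the 16 strains and from 6.45 to 7.53 in the 24, so the sides overlapped. Zfp982 (0.57) was too dim to be among the genes searched. Next in gene order after Zfp933 come Miip (r = -0.42 with Zfp979), Fv1 (0.13), a retrovirus restriction gene, and Mfn2 (-0.18), a gene of mitochondrial fusion. These coefficients describe strain means that share arrays and ancestry. Whether probes of 1 gene also read its near-identical neighbours was not tested, as probe sequences were not used here.

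Zfp980 shared the most promoter sequence with Zfp979 and had another strain pattern (r = 0.03, Spearman rho = 0.31 over 40 strains). It was at an intensity of 41.1 in MSM/Ms, 39.3 in P/J, 36.6 in C57BR-titled, 31.5 in SEA/GnJ and 31.4 in CAST/EiJ, and at 24.5 or less in the other 35 strains, all of these below the median of all values. All 5 strains were low in Zfp979. They are not set apart in Zfp980, as the step below them, 0.36 on the log2 scale, was under the replicate SD of 0.37. Arrays overlapped across it, at 42.6 and 23.2 in CAST/EiJ against 30.6 on C57L/J replicate 1 and 32.8 on C3H/HeJ replicate 2.

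**Figure D3:**
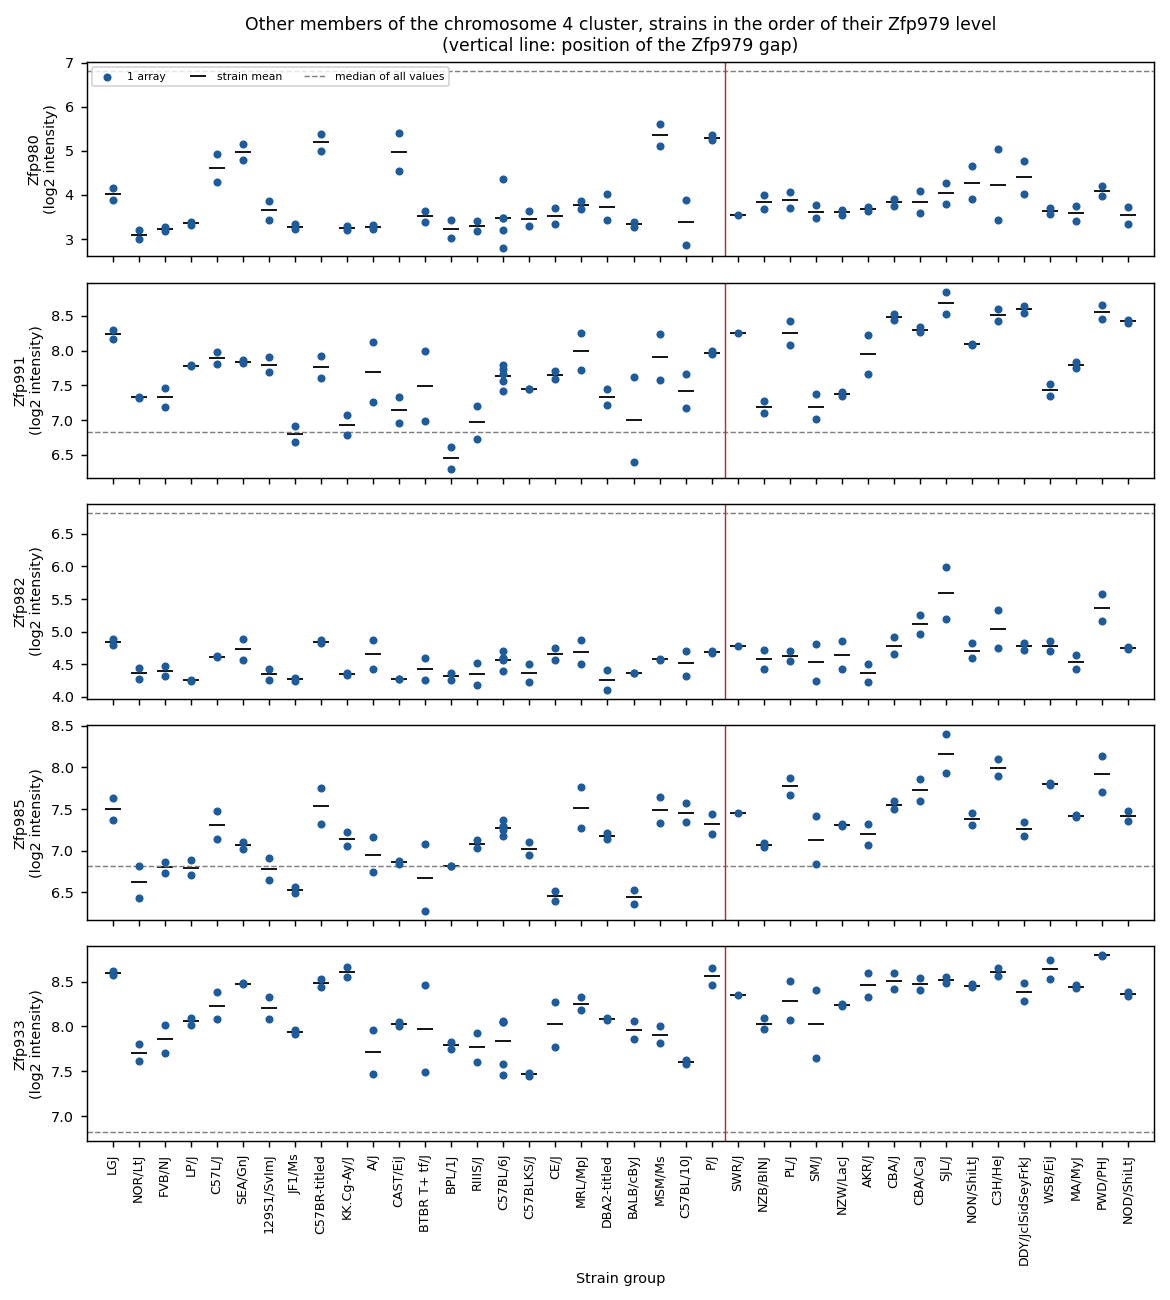
Levels (log2 intensity) of the other 5 chromosome 4 genes in each array (points) and strain (bars), with strains in the order of their Zfp979 mean and a vertical line at the Zfp979 gap. Levels on the right of the line overlap those on the left in all 5 genes, and Zfp980 is highest in MSM/Ms, on the left.

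An on/off gap was defined as a step of at least 1 on the log2 scale and at least 3 replicate SDs, with all strains under it at or below the median of all values. The share of all probe sets that meet this rule is not given here, so the count of on/off genes has no background beside it. Among the zinc finger genes described here, Zfp945 on chromosome 17 was the only other gene to meet the rule. It was low in PWD/PHJ alone, at 82.6 and 83.6 on its arrays, against strain means of 189 in BTBR T+ tf/J to 501 in BALB/cByJ, a gap of 1.19. The arrays of the other strains did not reach down to PWD/PHJ, the lowest being BTBR T+ tf/J replicate 2 at 135. The genes most like Zfp945 were Twsg1 (r = 0.71), which codes for a modulator of BMP signalling and lies on chromosome 17 too, and Usp45 (0.69), a deubiquitinase, and Tstd3 (0.64) on chromosome 4. All 3 were lowest in PWD/PHJ. Without PWD/PHJ the coefficients were 0.51, 0.52 and 0.53.

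Zfp931 and Zfp935 did not meet the rule and were picked out after their values were seen. Zfp931 on chromosome 2 was low in 4 strains, with arrays at 15.4 and 16.5 in RIIIS/J, 17.8 and 23.7 in KK.Cg-Ay/J, 27.9 and 16.0 in NON/ShiLtJ and 22.4 and 48.2 in CE/J. The other 36 strain means ran from 62.1 in SM/J to 231 in MA/MyJ. The gap was 0.92. It passed the rule without CE/J replicate 2. In Zfp935 on chromosome 13, BTBR T+ tf/J (120 and 40.4) and LP/J (115 and 120) were low, and the other 38 strain means ran from 224 in DBA2-titled to 497 in PWD/PHJ, with a gap of 0.93. The LP/J mean, 6.88 on the log2 scale, also lay above the median of all values, 6.82. Zfp935 passed the rule after quantile normalization or median centring. Without BTBR T+ tf/J replicate 1 the genes that met it were Zfp935, Zfp942 and Zfp979, and Zfp945 no longer did.

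Zfp949 and Zfp971 varied widely without such a step. Zfp949 on chromosome 9 ranged from 125 in CAST/EiJ, with arrays at 111 and 141, to 698 in LGJ, with arrays at 636 and 765 (SD of strain means 0.80, adjusted p = 1.64e-15, moderated F-test). LGJ, SWR/J (643), WSB/EiJ (597), PL/J (596), DDY/JclSidSeyFrkJ and FVB/NJ (572 each) were high, and strains of the C57 group lay between 138 in C57L/J and 194 in C57BL/6J. Zfp971 on chromosome 2 ranged from 146 in MSM/Ms, with arrays at 138 and 155, to 1014 in C3H/HeJ, with arrays at 923 and 1114 (SD 0.64, adjusted p = 5.25e-15). NZB/BINJ (225) and WSB/EiJ (245) were the next lowest in Zfp971, and their arrays lay above both MSM/Ms arrays. The 4 strains low in Zfp931 were not low in Zfp971, which stood at 749 in RIIIS/J, 641 in KK.Cg-Ay/J, 687 in NON/ShiLtJ and 627 in CE/J. Over 40 strains the strain means of Zfp931 and Zfp971 had a Pearson r of 0.28 and a Spearman rho of 0.65.

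Agreement of neighbours was measured over 23 pairs that follow each other among the 34 genes on a chromosome. The median Pearson r over 40 strain means was 0.39 (from -0.22 to 0.85), against 0.15 (from -0.44 to 0.84) over 481 pairs of genes on different chromosomes. The medians by Spearman rho were 0.50 and 0.18. The 6 highest pairs were Zfp958 with Zfp930 (0.85), Zfp982 with Zfp985 (0.78), Zfp991 with Zfp982 (0.75), Zfp935 with Zfp953 (0.70), Zfp944 with Zfp946 (0.68) and Zfp983 with Zfp942 (0.67). The first of these is no close pair, as 365 coding genes lie between Zfp958 and Zfp930 on chromosome 8, and 54 lie between Zfp935 and Zfp953. For the other 4 pairs between 0 and 5 coding genes intervene. Without the 2 strains farthest from the median the 6 coefficients were 0.82, 0.72, 0.74, 0.68, 0.66 and 0.57. Zfp958, in the highest pair, did not pass the F-test over strains. Its SD of strain means, 0.21, was below its replicate SD of 0.23.

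The lowest pairs were Zfp954 with Zfp974 on chromosome 7 (-0.22, with 440 coding genes between them), Zfp947 with Zfp944 on chromosome 17 (-0.15) and Zfp975 with Zfp941 on chromosome 7 (-0.10). Close neighbours did not always follow each other. Zfp946 and Zfp945 on chromosome 17 have 3 coding genes between them and a Pearson r of -0.01, which was 0.42 without PWD/PHJ and MSM/Ms. PWD/PHJ was the highest strain in Zfp946 and the lowest in Zfp945.

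**Figure D4:**
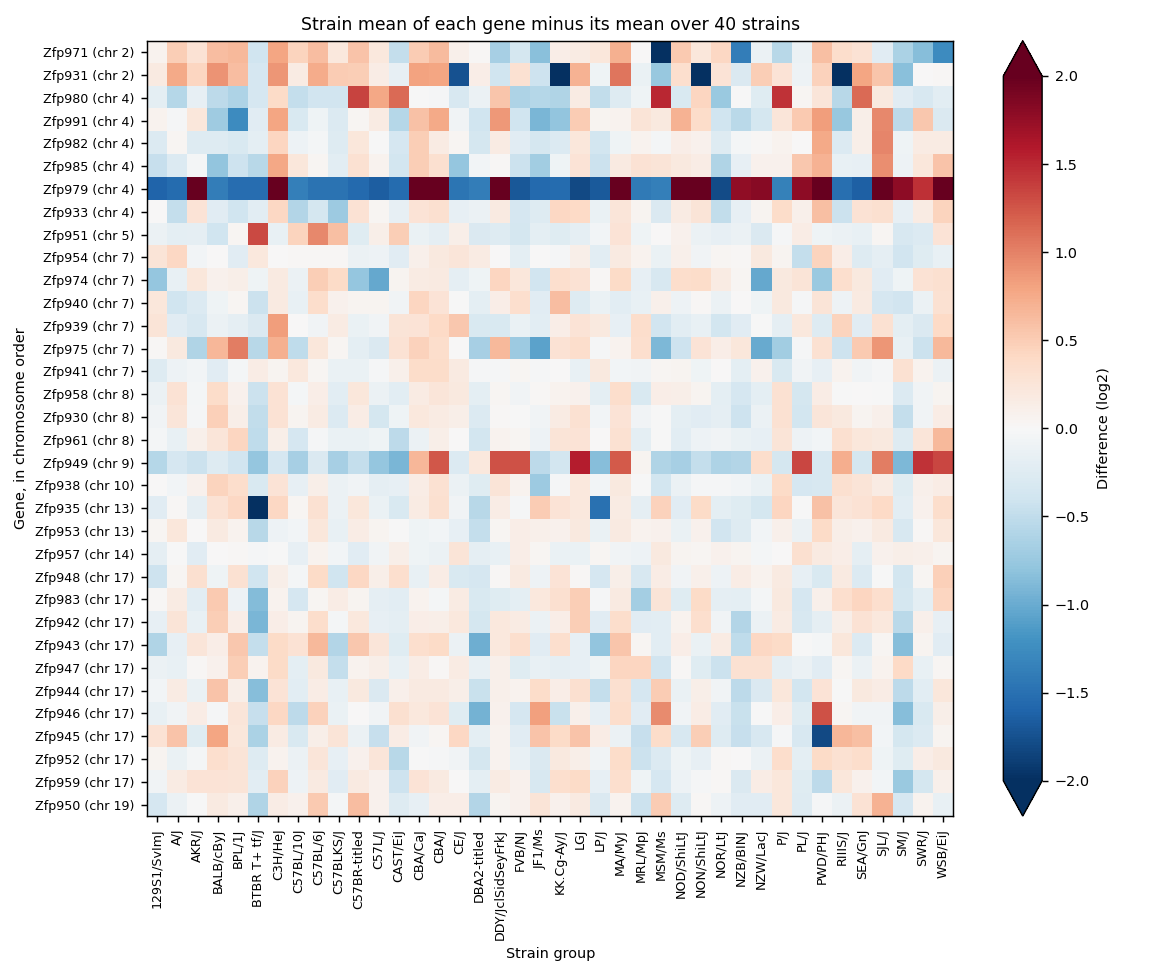
Each cell is the strain mean of a gene minus its mean over 40 strains (log2; red higher, blue lower, colours end at 2 in either direction), with genes in chromosome order and strains in alphabetical order. Zfp979 splits the strains into 2 sides, Zfp945 is low in PWD/PHJ, and many genes are blue in BTBR T+ tf/J, a column that rests mostly on replicate 2 of that strain.

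The column of low values in BTBR T+ tf/J came mostly from 1 array, replicate 2. In Zfp935 both arrays of BTBR T+ tf/J were low, at 120 and 40.4. This strain had the lowest mean of all 40 in 9 of the 34 genes, against 4.65% of all probe sets. Without replicate 2 it was lowest in 0 genes, and without replicate 1 in 17. BALB/cByJ was highest in 7 genes (4.00% of all probe sets) and PWD/PHJ in 6 (6.06%). The 6 genes highest in PWD/PHJ were Zfp933, Zfp946, Zfp935, Zfp953, Zfp952 and Zfp954.

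The origin of the strains was compared with the strain as the replicate, by limma on strain means, between PWD/PHJ, JF1/Ms, MSM/Ms and CAST/EiJ and the other 36 strains. Strains share ancestry, as do the Japanese strains MSM/Ms and JF1/Ms, so they are not independent replicates. The p-values by origin may therefore be too small. Of the 34 genes 3 passed, which is 8.82% against 8.73% of all probe sets, so the share was close to the background. By direction, 1 gene was higher (4.96% of all probe sets) and 2 were lower (3.77%). Zfp946 on chromosome 17 was higher in the 4 strains. Its strain means were 186 in PWD/PHJ, 148 in MSM/Ms, 135 in JF1/Ms and 96.0 in CAST/EiJ, against 39.7 in DBA2-titled to 105 in C57BL/6J among the others, and only CAST/EiJ lay within their range. The difference was 0.94 ± 0.16 on the log2 scale (SE, n = 4 and 36 strains, limma adjusted p = 6.10e-05).

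Zfp938 on chromosome 10 was lower in the 4 strains by limma (-0.44 ± 0.11 on the log2 scale, adjusted p = 0.00369), and so was Zfp959 on chromosome 17 (-0.45 ± 0.12, adjusted p = 0.0120). In Zfp938, JF1/Ms (255) and MSM/Ms (325) lay below all other strains, whereas PWD/PHJ (338) and CAST/EiJ (374) lay within the range of 334 to 570. In Zfp959 the 4 strains stood at 88.1 to 102, with SM/J (75.8) lower still among the others and C3H/HeJ highest at 175. Each call was lost without 1 strain. Without JF1/Ms the difference of Zfp938 was -0.33 (limma adjusted p = 0.0859), and without PWD/PHJ that of Zfp959 was -0.40 (adjusted p = 0.0675). Marker lists of other cells differed in some of the 4 strains, and not alike in all of them. The mean of 6 myeloid markers was 6.50 to 6.70 on the arrays of CAST/EiJ, JF1/Ms and MSM/Ms and 5.66 to 5.71 on those of PWD/PHJ, against a median of 5.83 (5.58 to 7.06) in the other strains. That of 2 CD8 T cell markers was 6.85 to 7.23 in PWD/PHJ and CAST/EiJ, below all arrays of the other 36 strains (7.46 to 8.59), and that of 5 natural killer markers was 6.11 to 6.17 in CAST/EiJ, above all of them (5.07 to 5.74). Their part in these differences was not tested. For Zfp946 the highest adjusted p over the settings that kept it was 0.00320, and it was too dim for the fit without the dimmest 40% of probe sets.

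**Figure D5:**
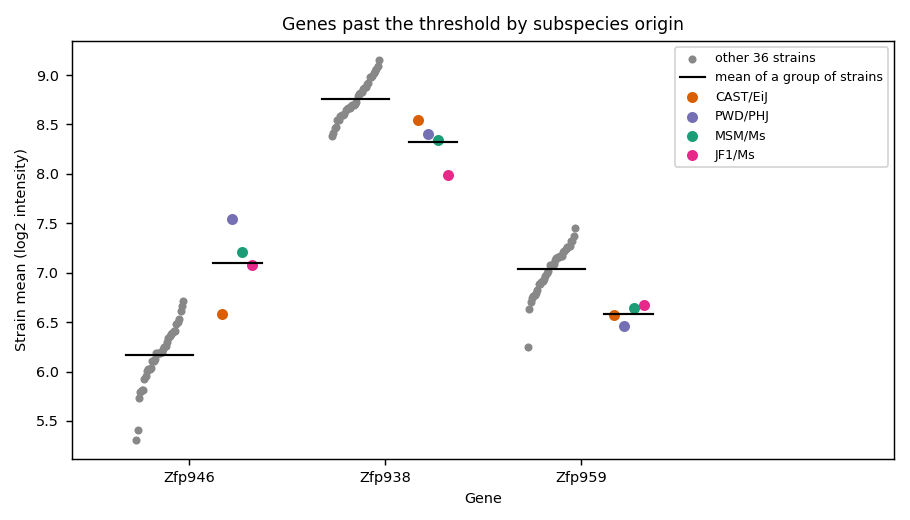
Strain means (log2 intensity) of Zfp946, Zfp938 and Zfp959 in PWD/PHJ, JF1/Ms, MSM/Ms and CAST/EiJ (coloured) and in the other 36 strains (grey), with the mean of each group of strains as a bar. For Zfp946 only CAST/EiJ overlaps the other strains.

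Closely related strains were compared in 7 pairs with limma contrasts from the fit to all arrays, with p-values adjusted over all probe sets. NOR/LtJ descends from a cross of NOD with a C57BL/KsJ mouse. Between NOR/LtJ and NOD/ShiLtJ 3 of the 34 genes passed, against 0.506% of all probe sets, and all 3 lie in the chromosome 4 cluster. Zfp979 read 213 and 232 on the NOD/ShiLtJ arrays, 7.30 and 7.54 on the NOR/LtJ arrays and 9.36 and 9.14 on the C57BLKS/J arrays, and the difference between NOR/LtJ and NOD/ShiLtJ was -4.91 ± 0.26 on the log2 scale (SE, adjusted p = 1.41e-20). Because the NOR/LtJ signal was not told apart from background, this size depends on the floor, and with an offset of 32 it was -2.69. Zfp991 read 337 and 348 in NOD/ShiLtJ, 161 and 160 in NOR/LtJ and 174 and 175 in C57BLKS/J (-1.09 ± 0.26, adjusted p = 0.0218). Zfp985 read 164 and 179 in NOD/ShiLtJ, 86.5 and 113 in NOR/LtJ and 123 and 138 in C57BLKS/J (-0.79 ± 0.19, adjusted p = 0.0218). NOR/LtJ and NOD/ShiLtJ arrays did not overlap in any of the 3 genes. The neighbour Zfp933 read 323 and 335 against 223 and 196 and did not pass (adjusted p = 0.216).

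The Zfp979 call between NOR/LtJ and NOD/ShiLtJ held when any 1 array was left out. That of Zfp991 was lost without either NOD/ShiLtJ array (limma adjusted p = 0.177 and 0.254) or either NOR/LtJ array (0.239 and 0.240), and that of Zfp985 without either NOD/ShiLtJ array (0.111 and 0.341) or without NOR/LtJ replicate 1 (0.938). Each such fit leaves 1 array in that strain, which is assumed to vary like the other groups. After median centring the adjusted p was 0.162 for Zfp991 and 0.208 for Zfp985, and after quantile normalization it was 0.0589 for Zfp985.

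MSM/Ms and JF1/Ms, both of Japanese origin, differed in 4 genes, against 2.13% of all probe sets. Zfp980 read 34.7 and 48.7 in MSM/Ms and 9.32 and 10.1 in JF1/Ms, a difference of 2.08 ± 0.34 on the log2 scale (limma adjusted p = 2.80e-05). The JF1/Ms arrays lay near the floor, and with an offset of 32 the difference was 0.81. Zfp985 read 201 and 161 against 94.7 and 90.3 (0.96 ± 0.19, adjusted p = 0.000473), and Zfp991 read 191 and 303 against 121 and 103 (1.11 ± 0.26, adjusted p = 0.00522). These 3 genes lie on chromosome 4, where Zfp979 was low in both strains. Zfp971 on chromosome 2 was lower in MSM/Ms, at 138 and 155 against 286 and 376 (-1.17 ± 0.24, adjusted p = 0.00111). Arrays of MSM/Ms and JF1/Ms did not overlap in any of the 4 genes. Without JF1/Ms replicate 2 the adjusted p was 0.102 for Zfp971 and 0.148 for Zfp991, without MSM/Ms replicate 1 it was 0.0511 for Zfp971 and 0.0713 for Zfp985, and without MSM/Ms replicate 2 it was 0.195 for Zfp991.

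Between C3H/HeJ and CBA/J 1 gene differed (0.506% of all probe sets). Zfp949 read 187 and 188 in C3H/HeJ against 550 and 565 in CBA/J (-1.57 ± 0.28 on the log2 scale, limma adjusted p = 0.000506). CBA/CaJ was between them, with Zfp949 arrays at 415 and 336. Between LP/J and 129S1/SvImJ 1 gene differed (1.01% of all probe sets), Zfp935, at 115 and 120 against 313 and 252 (-1.26 ± 0.24, adjusted p = 0.000842, and 0.0533 without 129S1/SvImJ replicate 1). In neither gene did the arrays of the compared strains overlap.

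Between C57BL/10J and C57BL/6J 3 genes passed (2.49% of all probe sets), all lower in C57BL/10J. The mean over the 34 genes was 6.73 on C57BL/10J replicate 3 and 7.05 on replicate 1. The mean of the naive markers was 11.79 and 12.10 on the same arrays. The part of this difference between the arrays in the 3 calls was not tested. Zfp946 read 54.3 and 51.9 in C57BL/10J against 112, 105, 114, 92.0 and 104 in C57BL/6J, with no overlap (-0.99 ± 0.19 on the log2 scale, limma adjusted p = 0.00115, and 0.0525 without C57BL/10J replicate 3). Zfp940 read 106 and 80.9 against 134, 125, 128, 116 and 156, again with no overlap (-0.50 ± 0.14, adjusted p = 0.0354). Without C57BL/10J replicate 3 its adjusted p was 0.727, and it was 0.0536, 0.0580 and 0.0715 without C57BL/6J replicate 1, 3 or 5. Zfp974 lay at the threshold, with 67.3 and 42.3 against 77.0, 86.5, 99.5, 60.9 and 89.5 and overlapping arrays (-0.61 ± 0.18, adjusted p = 0.0483). It lost its call in 47 of 82 fits that left out 1 array, with an adjusted p of 0.894 without C57BL/10J replicate 3. No gene of the 34 passed between CBA/J and CBA/CaJ (0.361% of all probe sets) or between C57L/J and C57BR-titled (0.201%).

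Against C57BL/6J, the reference strain, each of 38 strains was compared by limma contrast. The contrasts share the 5 C57BL/6J arrays and are not independent. The median strain differed in 6 of the 34 genes (from 2 to 20), and the median strain differed in 6.18% of all probe sets. Pooled over strains, 288 calls were made, 22.3% of the tests on the 34 genes, against 7.53% of the tests on all probe sets. Lower than C57BL/6J were 16.9% of the tests on the 34 genes, against 5.21% of all tests, and higher were 5.42% against 2.31%. Among the calls alone, 218 were lower and 70 higher, so 75.7% were lower, where 69.3% of the calls over all probe sets were. After quantile normalization 172 of 256 calls on the 34 genes were lower (67.2%). The share over all probe sets after quantile normalization is not given here, so 67.2% has no background beside it. Probe sequences were not used, so the part of sequence differences between strains under the probes was not tested in any comparison. The genes not called in any strain were Zfp941, Zfp947 and Zfp957.

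Zfp951 on chromosome 5, picked out after its values were seen, was lower than C57BL/6J in 34 of 38 strains. Its C57BL/6J arrays were spread widely, at 227, 150, 82.7, 114 and 95.5. Strain means elsewhere ran from 48.6 in BALB/cByJ to 97.1 in C57BLKS/J, apart from BTBR T+ tf/J at 160, with arrays at 202 and 127. Without each C57BL/6J array in turn, Zfp951 was lower in 33 to 36 strains. Zfp940 on chromosome 7 was lower in 19 strains, and Zfp943, Zfp950, Zfp971 and Zfp974 in 15 each. Zfp979 and Zfp933 were higher in 15 strains each. Zfp949 was higher in 10 and lower in 1, and Zfp985 was higher in 5 and lower in 9. Over the same left-out arrays Zfp979 stayed at 15 strains. Zfp933 ran from 9 (without replicate 5) to 17, Zfp940 from 13 to 19, Zfp974 from 10 (without replicate 3) to 18, and the strains lower in Zfp985 numbered 5 without replicate 1, 2, 3 or 4.

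The 3 largest counts against C57BL/6J each rested on 1 array. BTBR T+ tf/J had 20 calls (15% of all probe sets), all lower, but 1 without replicate 2 and 22 without replicate 1. PL/J had 19 calls (23.7%), but 3 without replicate 2, the array with raised B cell and neutrophil markers, and 18 without replicate 1. SM/J had 16 calls (11.3%), but 5 without replicate 2, whose mean over the 34 genes was 6.50, the second lowest of all arrays, and 23 without replicate 1. PWD/PHJ had 13 calls (12.8%), with 7 and 10 without replicate 1 and 2.

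Other genes of the KRAB pathway were taken from a list of 30 measured genes, mostly proteins through which KRAB zinc finger proteins act, with the KRAB zinc finger genes Zfp809 and Zfp57. Of these 26 passed the F-test over strains (86.7%), against 47.6% of all probe sets. The list was also brighter, with a median level of 9.21 on the log2 scale against 6.81 for all probe sets. The median of their SDs over strains was 0.163, against 0.143, and 4 of 30 had strain means at least 2-fold apart, against 4627 of 24922. Trim28, the corepressor that KRAB domains bind, ranged from an intensity of 752 in SJL/J to 1153 in KK.Cg-Ay/J (adjusted p = 0.000977, moderated F-test). Setdb1, which methylates histones at their targets, ranged from 359 in NOD/ShiLtJ to 529 in BALB/cByJ (adjusted p = 0.0318). By origin, 3 genes of the list were higher in PWD/PHJ, JF1/Ms, MSM/Ms and CAST/EiJ by limma on strain means, against 4.96% of all probe sets, and 1 was lower, against 3.77%. Resf1, a retroelement silencing factor, was higher by 0.61 ± 0.15 on the log2 scale (adjusted p = 0.00325), Zfp809, a zinc finger protein that silences retroviruses, by 0.45 ± 0.11 (adjusted p = 0.00416) and Morc3, an ATPase of silenced chromatin, by 0.43 ± 0.09 (adjusted p = 0.000943). Cbx5, a heterochromatin protein, was lower (-0.26 ± 0.08, adjusted p = 0.0200).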

How the data were processed

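The authors deposited 1 linear intensity per probe set and array, for 24922 probe sets on 82 arrays. The deposited intensity values come from RMA in Affymetrix Power Tools, per the submitters' processing notes; versions, probe annotation and filters are not given in the sources used here. Here log2 of each deposited value was used as it stood, without a filter. Array medians ran from 102 to 142. The number of arrays limits the precision.

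In the platform annotation 21425 probe sets carry 1 symbol, 1399 more than 1 and 2098 none. All 34 genes matched the RefSeq annotation of GRCm38.p6, used for gene order and promoter windows. The build behind the deposited values is not given in the sources used here.

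Samples were grouped by array title and background label. A mean for each group was fitted over all arrays with limma 3.58.1 in R 4.3.3 (lmFit, eBayes), with 42 residual degrees of freedom and 8.09 from the prior. The F-test, 38 contrasts with C57BL/6J (SWR/J, with 1 array, is in the fit without a contrast), 7 contrasts of related strains and, on strain means, the comparison by origin had p-values adjusted over all probe sets (Benjamini-Hochberg). The fits were tested on simulated data. Correlations are descriptions without p-values. Promoter windows were aligned with Biopython 1.88, and identity is the share of 250 positions.

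Genes named were those with an intraclass correlation of at least 0.8 or an on/off gap, those past the threshold by origin or in related pairs, the 6 highest and 3 lowest neighbour pairs, the 5 highest and 3 lowest means, and 3 genes most like each on/off gene. The choice of any further gene, KRAB genes included, was made with its values in view. The genes, lists and rules were chosen with earlier results of these data known.

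Alternatives were quantile normalization, median centring, leaving out the dimmest 40% of probe sets, an offset of 32 before log2, a trended robust prior, a replicate block by number, B cell markers as a covariate, grouping by background label, the most variable probe set, other gap sizes and leaving out arrays or strains. Leaving out both BTBR T+ tf/J arrays was added after seeing the data.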

Additional observations from a re-analysis of the deposited data

Results flagged for a closer look

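Single values that stood far from the rest of their group were sought in the 5 C57BL/6J arrays and among the 4 strains PWD/PHJ, JF1/Ms, MSM/Ms and CAST/EiJ, over 34 genes each. Chance alone gives such a value in about 1 in 20 groups. C57BL/6J replicate 5, the array with the highest median intensity, stood apart in 4 genes. It read 325 for Zfp954, where the other C57BL/6J arrays read 391 to 410. It read 81.0 for Zfp941 against 42.2 to 47.7, 152 for Zfp957 against 97.8 to 111, and 30.1 for Zfp947 against 16.8 to 19.4.

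Among the 4 strains, PWD/PHJ stood apart in 3 genes. Its strain mean was 210 for Zfp979, where the other strains had 8.71 to 9.89, 443 for Zfp933 against 241 to 261, and 263 for Zfp943 against 228 to 233. CAST/EiJ had 268 for Zfp935, where the others had 456 to 497.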

How the results depend on the processing

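The count of genes that differed between strains was 31 and ran from 30 to 33 when arrays were left out in turn, and from 21 to 32 under the other settings, where the 21 are of the 22 genes left without the dimmest 40% of probe sets. The 2 on/off genes became 1 without the dimmest 40% of probe sets (Zfp945, as Zfp979 was left out), with an offset of 32 (Zfp979), with grouping by background label (Zfp945) and with a gap of at least 1.5 (Zfp979), and 3 with quantile normalization or median centring, which added Zfp935. Without single arrays the count was 2 to 3. The median r of neighbours, 0.39, was 0.59 without the dimmest 40% of probe sets and 0.50 as Spearman rho, and 0.36 to 0.43 without single arrays. The count by origin was 3 in all 82 fits without an array and 2 to 4 otherwise. The median count against C57BL/6J, 6, was 3 of the same 22 genes and 5 to 7.5 without single arrays. The count over related pairs, 12, ran from 9 to 16 without single arrays and from 8 to 13 otherwise. PL/J against C57BL/6J gave 11 calls after quantile normalization or median centring, and 4 with B cell markers as a covariate. The causes were not tested. With the replicate number as a block, 32 genes differed between strains, 13 calls stood over related pairs, and the adjusted p of Zfp940 between C57BL/10J and C57BL/6J was 0.0749. The numbers did not pair the arrays, as same-numbered arrays of 36 strains had a median correlation of deviations of 0.000389 (from -0.63 to 0.57). Of 1869 values recomputed for 20 named results, 1793 kept their direction and side of the threshold, 76 lost the threshold and 0 reversed. For related pairs, most arrays left out in turn belonged to neither strain, and an SD of strain means could not reverse. The tally is therefore no measure of how firm a call is. Groups of 2 arrays limit these comparisons, and a low signal, as for Zfp979 or Zfp980, was not told apart from background.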
